A study of Gallus gallus with 6 samples.

Results

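The genes described here were 9 genes of interferon response and antigen presentation: IFIH1, IRF1, IRF7, EIF2AK2, OASL, MX1, IFI27L2, B2M and TAP1. They were taken from the table of gene abundances by symbol, and each of the 9 had exactly 1 row among the 23873 genes listed. RNA sequencing of polyA RNA gave 6 libraries of chicken primordial germ cells (PGCs), from which eggs or sperm later form. In both groups the cells came from the blood of chick embryos and had been cultured with FGF2, the ROCK inhibitor H1152 and the myosin inhibitor Blebbistatin. The undifferentiated PGCs (3 libraries) were the cells growing in suspension. The somatic differentiated PGCs (3 libraries) were adherent cells left after the suspended cells had been drawn off, and were grown on for some weeks. The labels name no genotype and no interferon or virus treatment, and do not say whether libraries came from separate embryos or lines. The p-values therefore measure the spread between these libraries, which may be technical. The comparison addresses which genes differ in level between the suspended PGCs and the adherent cells labelled somatic differentiated. Which cells the adherent ones arose from was not tested.

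In vertebrate cells, viral RNA in the cytoplasm is sensed by helicases such as MDA5, which is encoded by IFIH1 and carries much of this role in chickens, since they lack RIG-I. Sensing activates IRF7 and leads to secretion of interferons, which act through cell surface receptors, JAK kinases and STAT factors to induce antiviral effectors such as MX1, OASL and EIF2AK2. Interferon also raises the class I major histocompatibility complex (MHC), in which B2M is the light chain and TAP1 is a subunit of the pump that delivers peptides. Early embryonic and pluripotent cells of mammals are known for a weak interferon response.

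Levels are given as TPM, a relative abundance that corrects for transcript length, so that genes can be set against each other. Read numbers cannot be recovered from TPM, so sequencing depth was unknown and neither counting intervals nor detection limits could be given. The germ cell label was checked with 13 germ cell markers, DDX4 and DAZL among them. Their summed level was 7543 to 7619 TPM in undifferentiated and 1816 to 2550 TPM in somatic differentiated libraries, and 11 of the 13 were called lower in the latter. Over all tested genes, 7.77% were called lower. None of these 13 markers was at 0 in any somatic differentiated library. In bulk samples such as these, fewer cells of a type and less RNA per cell cannot be told apart.

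B2M was by far the most abundant of the 9 genes in undifferentiated cells, followed by TAP1, and the others lay below 4 TPM. In the order of levels, B2M and TAP1 stood clear of each other and of the rest. IFI27L2 and IFIH1 overlapped, IRF1 stood just below them without overlap, and IRF7 overlapped with EIF2AK2 as did EIF2AK2 with OASL, while MX1 lay below all. In somatic differentiated cells B2M, IFI27L2, TAP1 and IRF1 each overlapped the next in the order of mean levels, the last of them with IFIH1. Below IFIH1, EIF2AK2, IRF7, OASL and MX1 followed without overlap.

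**Figure D1:**
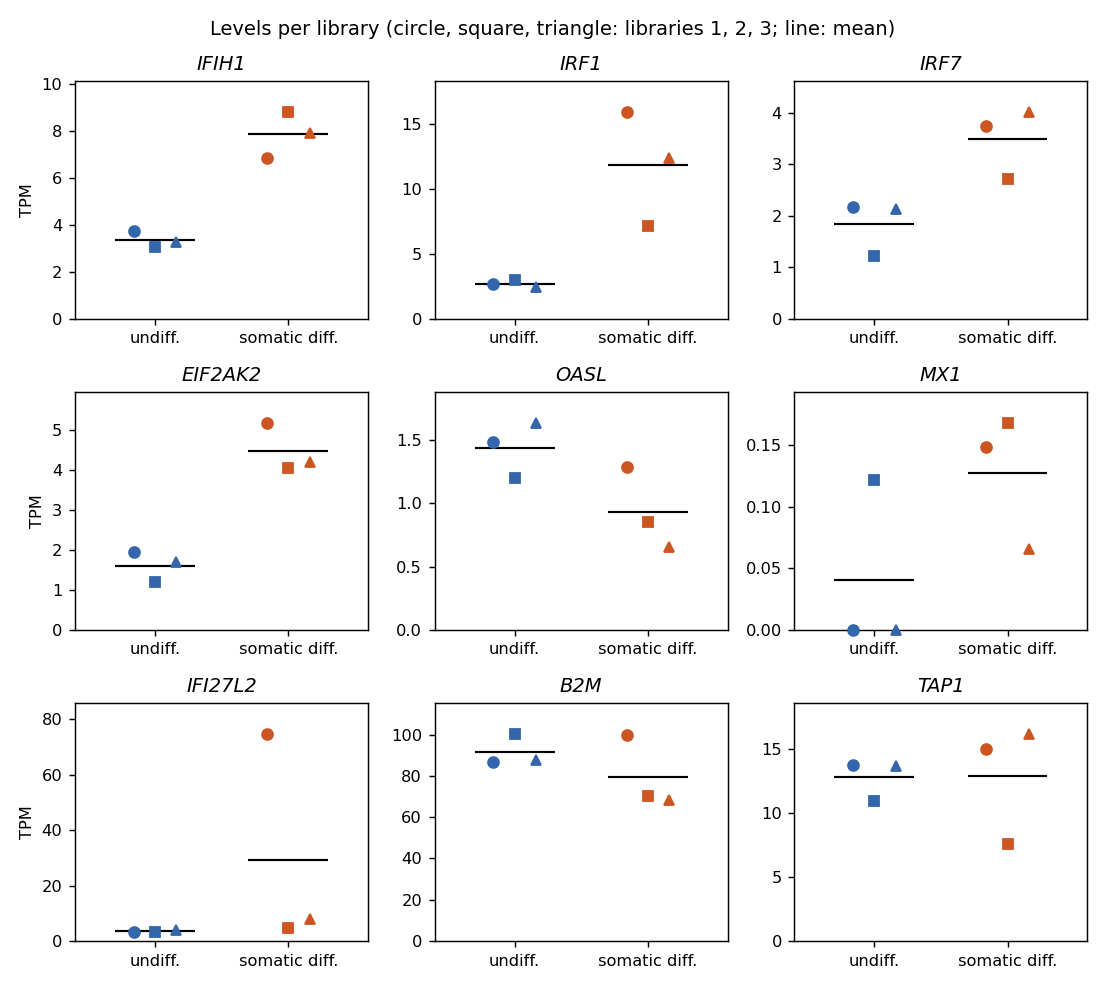
TPM of each of the 9 genes (vertical axes, each from 0 with its own scale) in undifferentiated (blue) and somatic differentiated (orange) PGC libraries, with symbols for libraries 1 to 3 and a line at each group mean. IFIH1, IRF1, IRF7 and EIF2AK2 separate the groups, IFI27L2 is carried by 1 library at 74.6 TPM, and B2M and TAP1 overlap between groups.

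Differences were tested with limma on log2(TPM + 1) over 12996 genes, those whose mean reached 1 TPM or more, with Benjamini-Hochberg adjustment over all of them. Of the 9 genes, 8 passed this filter, and each of these also averaged above 1 TPM in undifferentiated cells. A gene was called when its adjusted p was under 0.05 and its log2 change at least 1 in either direction. IRF1, IFIH1 and EIF2AK2 were called higher in somatic differentiated cells, 3 of the 8, where 13.2% of all tested genes were called higher. None of the 8 was called lower by limma, against 7.77% of all tested genes, and the number below an unadjusted p of 0.05 in that direction was also 0. An adjusted p under 0.05 with a lower level, whatever the size, was found for 22% of all tested genes and for 0 of the 8. The groups did not overlap, with the somatic differentiated libraries higher, for 5 of the 8, against 25% of all tested genes (55.6% with either group higher). The median log2 change of the 8 was 0.84, and that of all tested genes was -0.11. Scaling by the median of ratios moved the latter to 0.004. The 9 genes and the lists below were chosen with earlier results of these data known. The shares of all tested genes therefore give context and are no test of the genes as a set.

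**Figure D2:**
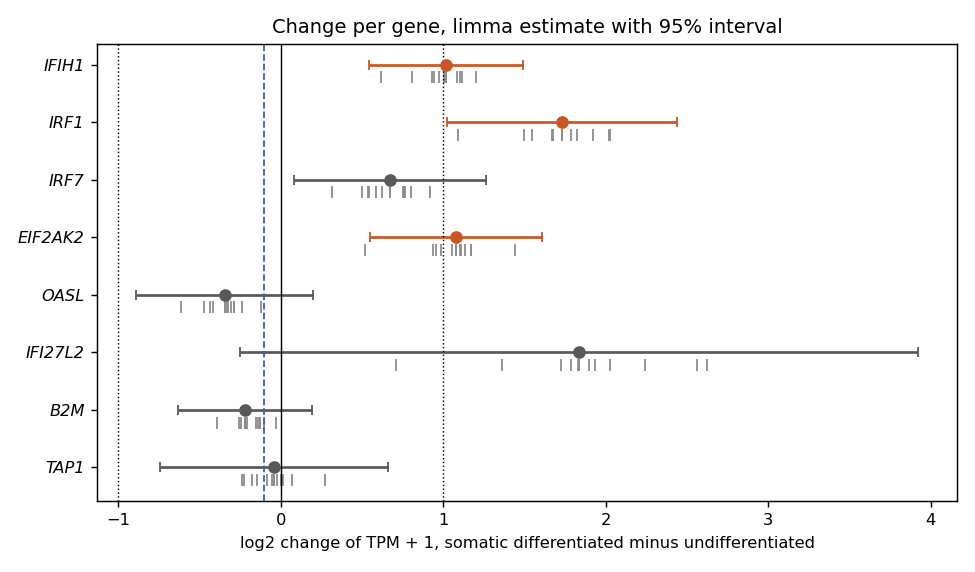
Log2 change of TPM + 1 (horizontal axis, somatic differentiated minus undifferentiated) of the 8 tested genes, with limma 95% intervals; orange marks called genes, grey ticks the alternative settings, dotted lines a change of 1 in either direction and the dashed line the median of all tested genes, -0.11. IRF1 lies farthest to the right of the called genes at 1.73, and the interval of IFI27L2 runs from -0.25 to 3.92.

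IFIH1, the double-stranded RNA sensor MDA5 (ENSGALG00000041192, chromosome 7, 21044187 to 21071090), was at 3.74, 3.06 and 3.25 TPM in undifferentiated libraries 1 to 3. It was at 6.84, 8.79 and 7.89 TPM in somatic differentiated libraries 1 to 3. Every somatic differentiated library was thus above every undifferentiated one. The means were 3.35 ± 0.353 and 7.84 ± 0.976 TPM (SD, n = 3), a log2 change of 1.02 (SE 0.20, limma adjusted p 0.00796). This sits at the minimum change, and the call was lost without undifferentiated library 2 (0.97) or somatic differentiated library 2 (0.94), with quantile normalization (0.81), array weights (0.93) and a pseudocount of 5 (0.62). The adjusted p over all alternatives ranged from 0.00242 to 0.0402.

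IRF1, a transcription factor that activates interferon-stimulated and MHC class I genes (ENSGALG00000006785, chromosome 13, 17591206 to 17597339), showed the largest called change of the 9 genes. Undifferentiated libraries 1 to 3 held 2.69, 2.98 and 2.44 TPM. Somatic differentiated libraries 1 to 3 held 15.9, 7.16 and 12.4 TPM. The lowest somatic differentiated value was thus more than double the highest undifferentiated one, and library 2 was the lowest of its group. The mean rose from 2.705 ± 0.273 to 11.8 ± 4.41 TPM (SD, n = 3), a log2 change of 1.73 (SE 0.30, limma adjusted p 0.00517). IRF1 was called under all 15 alternatives, with a log2 change between 1.09 and 2.02.

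IRF7, the factor that drives interferon transcription in birds (ENSGALG00000014297, chromosome 5, 16053125 to 16056590), gave a smaller difference. It was at 2.17, 1.22 and 2.12 TPM in undifferentiated and at 3.74, 2.72 and 4.02 TPM in somatic differentiated libraries 1 to 3. The groups did not overlap, and library 2 was the lowest in each. The log2 change was 0.67 with a 95% interval of 0.08 to 1.26 (limma adjusted p 0.0704), so IRF7 did not pass the test. The adjusted p was 0.035 with median of ratios scaling, 0.0406 with array weights and 0.0446 with no variance trend. Over all alternatives it ranged from 0.035 to 0.163. The change stayed under the minimum of 1 in each of these.

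EIF2AK2 encodes PKR, a kinase that halts translation when it binds double-stranded RNA (ENSGALG00000010560, chromosome 3, 32108928 to 32127395). Its level was 1.94, 1.19 and 1.69 TPM in undifferentiated libraries 1 to 3, and 5.17, 4.06 and 4.20 TPM in somatic differentiated libraries 1 to 3. All somatic differentiated values were more than double every undifferentiated value. The mean rose from 1.61 ± 0.384 to 4.48 ± 0.607 TPM (SD, n = 3), a log2 change of 1.08 (SE 0.22, limma adjusted p 0.00965). The change fell under the minimum without undifferentiated library 2 (0.96) or somatic differentiated library 1 (0.99), with quantile normalization (0.94) and with a pseudocount of 5 (0.52), while the adjusted p stayed at or below 0.0389. The annotation places GPATCH11 on the opposite strand over 7564 bases of EIF2AK2. GPATCH11 was at 71.8 to 90.2 TPM in undifferentiated and 72.7 to 86.8 TPM in somatic differentiated libraries. Whether the counting separated strands is not given in the sources used here.

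OASL and MX1, effectors often read as signs of interferon action, gave overlapping groups. OASL, of the oligoadenylate synthetase family (ENSGALG00000013723, chromosome 12, 3635427 to 3637460), was at 1.49, 1.202 and 1.64 TPM in undifferentiated libraries 1 to 3. It was at 1.29, 0.855 and 0.656 TPM in somatic differentiated libraries 1 to 3. The groups overlapped, and the log2 change was -0.35 with a 95% interval of -0.89 to 0.20 (limma adjusted p 0.266). MX1, an antiviral GTPase (ENSGALG00000016142, chromosome 1, 110239567 to 110260524), was listed at 0, 0.122 and 0 TPM in undifferentiated libraries 1 to 3. In somatic differentiated libraries 1 to 3 it was at 0.148, 0.168 and 0.0656 TPM. These values overlap, lie far below the filter of 1 TPM and gave no test with it; with no filter the limma adjusted p was 0.315.

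IFI27L2, listed in RefSeq under the older name ISG12-1 and related to a family of small interferon-induced mitochondrial proteins, was decided by a single library. The gene (ENSGALG00000021627, chromosome 23, 4490448 to 4491440) was at 3.38, 3.12 and 3.81 TPM in undifferentiated libraries 1 to 3. It was at 74.6, 4.78 and 8.04 TPM in somatic differentiated libraries 1 to 3. All somatic differentiated values were above all undifferentiated ones, but library 1 was 9.29 times the next highest library. The log2 change was 1.84 with a 95% interval of -0.25 to 3.92 (limma adjusted p 0.138), so it did not pass the test. Without somatic differentiated library 1 it was 0.71 (limma adjusted p 0.116), and with array weights 2.62 (limma adjusted p 0.037), the only one of 15 alternatives that called it, over which the adjusted p ranged from 0.037 to 0.348.

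Markers of other cell types were set beside these values. Of 16 leukocyte markers with a single row, 10 were under 1 TPM in every library, and CD79B, C1QB and TNFRSF13C were at 0 throughout. Their summed level was 9.92 to 14.8 TPM in undifferentiated libraries and 27.5, 10.1 and 12.2 TPM in somatic differentiated libraries 1 to 3. The marker that differed most between somatic differentiated library 1 and the others was LAPTM5, a lysosomal protein of blood cells, at 17.7 TPM there and 1.49 and 2.76 TPM in libraries 2 and 3. Of the 5 leukocyte markers tested, 1 was called, beside 21% of all tested genes called in either direction. It was CYBB, a subunit of the phagocyte oxidase, which fell from 4.13 to 5.12 TPM in undifferentiated libraries to 1.07 to 1.69 TPM (log2 change -1.18, limma adjusted p 0.00638). CSF1R, the macrophage growth factor receptor, was under the filter and higher in every somatic differentiated library, at 1.10 to 2.01 TPM against 0.087 to 0.137 TPM. PTPRC, the pan-leukocyte antigen CD45, was at 0.883 to 1.36 TPM in undifferentiated and 0.820 to 1.96 TPM in somatic differentiated libraries. Of 9 erythroid markers, 5 were under 1 TPM in every library, HBA1 and HBE1 were at 0 throughout, and the summed level was 90.3 to 222 and 87.9 to 117 TPM. TFRC made up most of that sum, at 89.5 to 219 and 84.4 to 111 TPM. The globins HBE and HBBA were higher in every somatic differentiated library, at 1.44 to 17.99 and 1.71 to 1.77 TPM against 0.213 to 1.04 and 0 TPM. TAL1 had a lower mean there, at 0.218 to 0.689 TPM against 0.457 to 2.40 TPM. Of 10 endothelial markers, 8 were tested. Of these, 4 were called higher and 1 lower, beside 13.2% and 7.77% of all tested genes. The summed level of the 10 was 20.9 to 38.9 TPM in undifferentiated and 117 to 154 TPM in somatic differentiated libraries. FLT1 and CDH5 had the highest somatic differentiated means, at 41.4 and 45.1 TPM against 3.35 and 3.58 TPM. KDR was called lower, at means of 4.91 and 1.49 TPM. PECAM1 had a log2 change of -0.02 (limma adjusted p 0.975), and TIE1 and TEK stayed under 1 TPM. The part of these cell types in the changes of IRF1, IFIH1, EIF2AK2 and IFI27L2 was not tested.

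The class I genes among the 9 did not pass the test. B2M (ENSGALG00000002160, chromosome 10, 1784065 to 1786985) was at 86.6, 100.1 and 87.9 TPM in undifferentiated libraries 1 to 3. It was at 99.9, 70.03 and 68.5 TPM in somatic differentiated libraries 1 to 3. The groups overlapped, since somatic differentiated library 1 was above undifferentiated libraries 1 and 3. The log2 change was -0.22 with a 95% interval of -0.63 to 0.19 (limma adjusted p 0.347), so a change as large as 1 in either direction lies outside the interval. The first 556 bases of B2M are overlapped on the other strand by PATL2, which was called lower, from 15.4 to 18.7 TPM down to 3.48 to 5.77 TPM.

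TAP1 (ENSGALG00000035075, chromosome 16, 2596216 to 2601012) is typed as a pseudogene in the table, although RefSeq lists it as protein coding. It was at 13.7, 10.9 and 13.6 TPM in undifferentiated libraries 1 to 3 and at 14.96, 7.58 and 16.1 TPM in somatic differentiated libraries 1 to 3. The groups overlapped, and library 2 was the lowest in each. The log2 change was -0.04 with a 95% interval of -0.75 to 0.66 (limma adjusted p 0.919), and its sign depended on the setting. A protein-coding gene without a symbol, ENSGALG00000029381, covers all of TAP1 on the opposite strand. It was at 22.8 to 35.1 TPM in undifferentiated and 12.3 to 22.5 TPM in somatic differentiated libraries, so reads of the pair may not be separated.

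TAP1 lies in the compact chicken MHC on chromosome 16, and its neighbours did not move as a block. TAPBP, which encodes tapasin, the chaperone that links class I molecules to the TAP pump, was at 11.4, 8.42 and 9.52 TPM in undifferentiated libraries 1 to 3. It was at 52.3, 28.9 and 54.5 TPM in somatic differentiated libraries 1 to 3. No value overlapped, and TAPBP rose by 2.06 on the log2 scale (limma adjusted p 0.0023). BF2, the dominant class I heavy chain of chickens, averaged 54.4 ± 3.52 and 80.4 ± 4.84 TPM (SD, n = 3), a log2 change of 0.55 (limma adjusted p 0.0119), below the minimum change. BF1, the minor class I heavy chain, was at 26.4 ± 1.204 and 24.2 ± 6.07 TPM (SD, n = 3; log2 change -0.15, limma adjusted p 0.613). BF1 and BF2 are alike in sequence and can share reads, as can the class II genes BLB1 and BLB2.

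**Figure D3:**
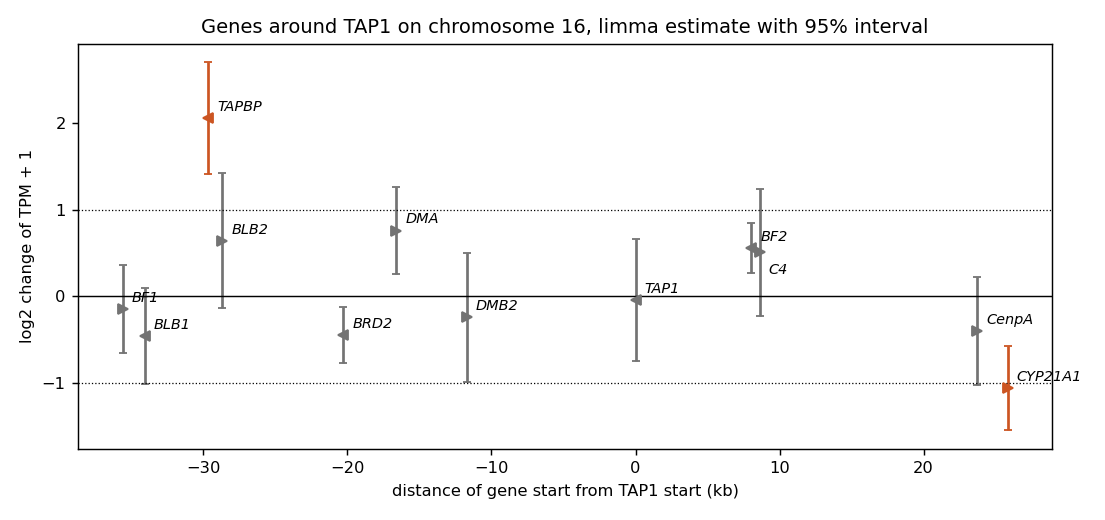
Log2 change of TPM + 1 (vertical axis, somatic differentiated minus undifferentiated, limma estimate with 95% interval) of 12 tested genes against the distance of each gene's start from that of TAP1 in kb, with arrowheads for the strand and orange for called genes. TAPBP stands at 2.06 and CYP21A1 at -1.06, while TAP1 and the BF and BLB genes lie between -1 and 1.

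The wider antigen presentation list held 31 other genes, of which 25 were listed and 21 tested. Of the 21, 3 were called higher and 1 lower, beside 13.2% and 7.77% of all tested genes, and the median log2 change was 0.40. With changes of any size counted, 8 of the 21 were higher at a limma adjusted p under 0.05 and 1 was lower. The shares of all tested genes were 17.9% and 22%. ERAP1, which trims peptides for class I, rose most, from 6.04, 3.20 and 5.87 TPM to 42.2, 31.8 and 32.1 TPM (log2 change 2.62, SE 0.26, limma adjusted p 0.000981). TAPBP came next, and the third was TAPBPL, a relative of tapasin, at 0.262 to 0.400 TPM and 1.98 to 2.49 TPM, named after its values were seen and called except with a pseudocount of 5 (log2 change 0.42). RFXAP, a subunit of the RFX complex that binds MHC promoters, fell from 167 ± 6.003 to 71.5 ± 14.2 TPM (SD, n = 3; log2 change -1.23, limma adjusted p 0.00226). The class II invariant chain CD74 was at 4.22, 5.36 and 2.72 TPM and at 11.3, 3.40 and 4.003 TPM, and did not pass the test (log2 change 0.38, limma adjusted p 0.511).

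Interferon receptors and their signalling genes were described from a list of 16, of which 14 were listed and tested. Of the 14, 6 were called higher, beside 13.2% of all tested genes, and the median log2 change was 0.42. None was called lower, beside 7.77% of all tested genes, or had an unadjusted limma p under 0.05 in that direction. IFNAR2, a chain of the type I interferon receptor, was at 15.6, 17.4 and 17.9 TPM in undifferentiated libraries 1 to 3. It was at 70.8, 54.3 and 125 TPM in somatic differentiated libraries 1 to 3, with no overlap (log2 change 2.15, SE 0.30, limma adjusted p 0.00258). Its partner chain IFNAR1 averaged 16.96 ± 3.37 and 24.4 ± 6.60 TPM (SD, n = 3; log2 change 0.48, limma adjusted p 0.154), and the difference between the 2 chains was not tested. IFNAR2, IL10RB, IFNAR1 and IFNGR2 lie next to each other on the plus strand of chromosome 1, between 106580169 and 106653536.

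The remaining called genes of that list were SOCS3, IL10RB, IFNGR2, SOCS1 and JAK1, all but the first named after their values were seen. SOCS3, an inhibitor of JAK kinases that cytokines induce, was at 1.26, 1.08 and 0.940 TPM in undifferentiated and at 14.3, 3.62 and 13.2 TPM in somatic differentiated libraries 1 to 3. It did not overlap between groups, and library 2 was again the lowest somatic differentiated value (log2 change 2.26, SE 0.46, limma adjusted p 0.00925). SOCS1, a second such inhibitor, had the same order of somatic differentiated libraries, at 11.3, 3.89 and 8.33 TPM against 2.16 to 2.97 TPM (log2 change 1.21, limma adjusted p 0.0334). The SOCS1 call was lost when any undifferentiated library, or library 1 or 3 of the somatic differentiated group, was left out (limma adjusted p 0.0568 to 0.106), with no filter (0.118) and with a pseudocount of 5 (log2 change 0.72). IFNGR2, a chain of the interferon gamma receptor, went from 25.9 ± 1.34 to 77.4 ± 9.20 TPM (SD, n = 3; log2 change 1.54, limma adjusted p 0.000813). The kinase JAK1 was at 129 ± 44.8 and 257 ± 34.7 TPM (SD, n = 3; log2 change 1.04, limma adjusted p 0.0243), a call lost without undifferentiated library 2 (0.71) or somatic differentiated library 1 or 2 (limma adjusted p 0.0728 and 0.0724), with array weights (0.83) and with no filter (limma adjusted p 0.103). STAT2, which helps carry the signal to the nucleus, was at 7.02 to 7.85 TPM in undifferentiated and 7.03 to 8.96 TPM in somatic differentiated libraries, a log2 change of 0.12 with a 95% interval of -0.33 to 0.57 (limma adjusted p 0.644).

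The interferon transcripts looked up here were at or near 0, in rows read after the other values had been seen. IFNG, IFNL3A and IFN-A were listed at 0 in all 6 libraries. IFNW1 was listed above 0 only in somatic differentiated library 2, at 0.0671 TPM, and IFNK only in undifferentiated library 1, at 0.07 TPM.

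Among 8 other tested genes of interferon regulatory factors and their cofactors, 2 were called higher and 1 lower. The shares of all tested genes were 13.2% and 7.77%, and the median log2 change of the 8 was 0.57. IRF2, which binds the same sites as IRF1 and can oppose it, rose from 3.24, 3.03 and 3.66 TPM to 17.1, 14.2 and 16.1 TPM (log2 change 1.96, SE 0.19, limma adjusted p 0.000893). IRF1 and IRF2 thus were close in level in undifferentiated cells and both rose. IRF2BP2, a corepressor that binds IRF2, rose from 13.3 ± 0.498 to 40.1 ± 4.32 TPM (SD, n = 3; log2 change 1.52, limma adjusted p 0.00103). IRF4, a factor of lymphoid cells, fell from 4.11, 4.02 and 8.22 TPM to 1.4995, 1.22 and 0.623 TPM (log2 change -1.57, SE 0.32, limma adjusted p 0.0092), but by less than the minimum with a pseudocount of 5 (-0.75).

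Of 14 tested genes of nucleic acid sensing other than IFIH1, 1 was called in either direction, beside 21% of all tested genes. It was higher, none was called lower, and the median log2 change was -0.01. In the lower direction 1 had an unadjusted limma p under 0.05. This was TMEM173, below the minimum change and named after its values were seen. TMEM173 fell from 2.71 to 4.61 TPM in undifferentiated libraries to 1.21 to 2.06 TPM (log2 change -0.77, limma adjusted p 0.0483). Without overlap between groups, 4 of the 14 were higher and 3 lower, beside 25% and 30.6% of all tested genes. TRIM25, a ubiquitin ligase of the RNA sensing pathway, was called higher, from 0.945, 0.502 and 0.853 TPM to 6.05, 3.79 and 3.76 TPM (log2 change 1.63, SE 0.25, limma adjusted p 0.00372), though not with a pseudocount of 5 (0.72). DHX58, the helicase LGP2 that assists MDA5, was under the filter at 0.278 to 0.365 TPM in undifferentiated and 0.886 to 1.43 TPM in somatic differentiated libraries. MAVS, the adaptor of MDA5, had a log2 change of 0.38 (95% interval -0.20 to 0.96, limma adjusted p 0.257).

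Other interferon-induced effectors went in both directions. Of 21 tested, 4 were called higher and 2 lower, beside 13.2% and 7.77% of all tested genes, and the median log2 change was -0.13. With changes of any size counted, 5 had a limma adjusted p under 0.05 with a higher level and 9 with a lower level, beside 17.9% and 22% of all tested genes. Those lower by less than the minimum included SAMHD1, a nuclease that depletes nucleotides, at 36.5 to 42.5 TPM and 15.6 to 24.6 TPM (log2 change -0.88, limma adjusted p 0.014), named after its values were seen. Another was the RNA editing enzyme ADAR, at 75.8 to 104.6 TPM and 46.1 to 57.1 TPM (log2 change -0.90, limma adjusted p 0.00743), also named after its values were seen. Without undifferentiated library 2 the number called lower was 4, and without undifferentiated library 3 it was 1. TRIM14, an adaptor of antiviral signalling in mammals, rose from 5.40 ± 0.596 to 20.1 ± 8.78 TPM (SD, n = 3; log2 change 1.62, limma adjusted p 0.0122), but its adjusted p was 0.0574 with no filter. DTX3L, a ubiquitin ligase that acts with PARP9 in mammals, fell from 16.8 ± 0.577 to 7.13 ± 0.799 TPM (SD, n = 3; log2 change -1.13, limma adjusted p 0.00362). TNFSF10, the death ligand TRAIL, went from 173 ± 22.3 to 87.1 ± 27.7 TPM (SD, n = 3; log2 change -1.02, limma adjusted p 0.0162), and this call was lost when library 1 or 3 of the undifferentiated group (-0.97 each) or library 1 of the somatic differentiated group (-0.77) was left out. It was also lost with median of ratios scaling (-0.91), quantile normalization (-0.95), a pseudocount of 5 (-0.99) and no filter (limma adjusted p 0.073). RSAD2 and IFI6, which interferon induces strongly, stayed under 1 TPM in every library, at up to 0.412 and 0.185 TPM. Both were under the filter, so they are not among the 21 tested or the 4 called higher. RSAD2 was nonetheless higher in every somatic differentiated library, at 0.164 to 0.412 TPM against 0.0522 to 0.0875 TPM, while IFI6 overlapped between groups.

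**Figure D4:**
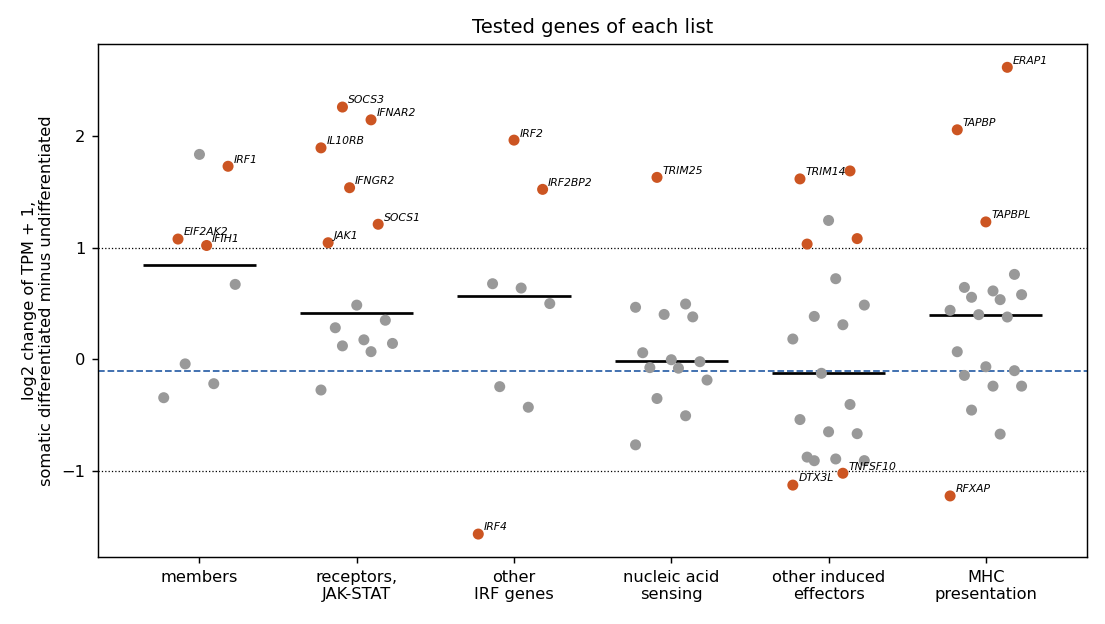
Log2 change of TPM + 1 (vertical axis, somatic differentiated minus undifferentiated) of the tested genes among the 9 and in 5 lists of related genes, with orange for called genes (labelled where the text names them), a line at each median, dotted lines at a change of 1 in either direction and a dashed line at the median of all tested genes, -0.11. Called genes of the receptor list all lie above 1, while the other induced effectors spread to both sides, with 4 called higher and 2 lower.

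The position of single libraries was similar across several of the 9 genes. Undifferentiated library 2 was the lowest of its group for 6 of the 8 tested genes, and it was also the lowest for 63.4% of all tested genes. Somatic differentiated library 2 was the lowest of its group for 5 of the 8, against 25.97% of all tested genes. The median tested gene was at 16.6 TPM in undifferentiated library 2 and at 20.8 to 23.4 TPM in the other 5 libraries.

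Genes most like B2M, IFI27L2 and TAP1 over the 6 libraries were sought among 7876 genes with a symbol and a mean of at least 10 TPM, by Pearson correlation of log2(TPM + 1). This is a description of 6 points that share a library total and fall into 2 groups. For B2M they were TKT (0.995) and ZNF330 (0.988). TKT, the transketolase of the pentose phosphate pathway, was at 250, 280 and 252 TPM and at 279, 212 and 199 TPM. For TAP1 they were SLC25A4 (0.978) and HIST1H2B7 (0.963), and for IFI27L2 they were FABP4 (0.990) and MGRN1 (0.987). HIST1H2B7 was at 13.6, 9.83 and 12.4 TPM in undifferentiated and at 44.5, 0 and 39.2 TPM in somatic differentiated libraries 1 to 3. That is a wider spread than that of TAP1. FABP4, a fatty acid carrier of fat cells and macrophages, was at 1.31, 1.48 and 1.76 TPM in undifferentiated and at 57.6, 3.35 and 7.20 TPM in somatic differentiated libraries 1 to 3.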

How the data were processed

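Per the labels' protocols, polyA RNA of 6 cultures was made into stranded SMARTer libraries and converted for MGI sequencing. The deposited table gives TPM for each gene, which the authors estimated with RSEM according to its name. The submitters' processing notes list GRCg6a, FastQC 0.11.9, Trimmomatic 0.39, Trim Galore 0.6.6, cutadapt 3.1, STAR 2.7.3a and RSEM 1.3.1, with no settings. Each column summed to 1000000, so TPM is relative and holds no depth. Coordinates are those of the table.

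The groups were compared on log2(TPM + 1) using limma 3.58.1 (R 4.3.3), with trended moderated variances, no covariates, a mean of at least 1 TPM and Benjamini-Hochberg adjustment over 12996 genes. A fold on this scale understates changes of genes with few TPM. Plots and tables used Python 3.11.15, pandas 2.3.3, numpy 2.4.6 and matplotlib 3.10.9. On simulated data for this comparison (12996 genes, 3 libraries per group, 200 genes changed by 2 on the log2 scale), 5 runs recovered 74% to 78.5% of changed genes with 2 to 9 false calls. Noise was drawn independently for each gene, without shifts shared by a whole library. Changes near the minimum of 1, such as those of IFIH1 and EIF2AK2, were not simulated, so these rates do not apply to them.

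The 9 genes and the lists were chosen with earlier results of these data known. All 9 are described. From each list of related genes, the text names up to 2 called genes per direction, those with the largest changes, and other genes only where stated or for their role; some list genes are not reported here by name. Profiles were compared for the 3 genes with the highest means. CTSL2 and MB21D1 were read as CTSV and CGAS. For IRF10 the row labelled IRF9 was used, and whether that row is IRF9 or IRF10 was not tested. Symbols with no row or several were left out. Alternatives changed the pseudocount, filter, scaling, variance trend and library weights, fitted the replicate number as a block, and omitted single libraries.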

Additional observations from a re-analysis of the deposited data

How the results depend on the processing

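IRF1 was called under all 15 alternatives and IFIH1 under 10 of 15, while B2M and TAP1 were called under none of 15. IRF7, OASL and EIF2AK2 could be tested under 14, since they drop out with a filter of 5 TPM; EIF2AK2 was called under 10 of these and IRF7 and OASL under none. The number of the 8 tested genes called higher was 1 with a pseudocount of 5 and with quantile normalization, and 1 to 3 when a library was left out; the lowest came without undifferentiated library 2. The cause was not tested. The count of all genes called lower was 529 with a pseudocount of 5. Leaving out single libraries gave 1412 to 1682 genes called higher and 761 to 1463 called lower, with 0 of the 8 called lower each time. Without undifferentiated library 2, 49.1% of calls were higher, against 63.0% with all libraries and 71.6% with median of ratios scaling. The log2 change of TAP1 reversed to 0.0666 with median of ratios scaling, ranged from -0.23 to 0.27 when a library was left out, and reversed to 0.01, 0.004 and 0.27 without undifferentiated library 1, undifferentiated library 3 and somatic differentiated library 2. In the lists the number of other induced effectors called ranged from 1 to 4 higher and 0 to 5 lower, and the number of receptor and signalling genes called higher from 3 to 6. SOCS3 was at an adjusted p of 0.053 with no filter, and DTX3L at -0.84 with a pseudocount of 5. Same-numbered libraries of the 2 groups deviated together with r of 0.19, 0.01 and 0.14. Between libraries of unlike number r ranged from -0.26 to 0.11. Since 1 same-numbered pair was not above 0.1 the numbers were not treated as pairs. Whether they mark a shared line was not tested. With the replicate number as a block, 1793 genes were called higher and 993 lower, and the called genes among the 8 stayed 3. Depth is unknown in TPM, so genes under 1 TPM such as MX1 cannot be given a detection limit.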

Other observations

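The high IFI27L2 value belonged to a wider set in the same library, looked at after the values had been seen. In somatic differentiated library 1, 42 tested genes reached at least 10 TPM and at least 5 times every other library, IFI27L2 among them. The same count was 5 and 22 in somatic differentiated libraries 2 and 3, and 1 to 4 in undifferentiated libraries. The set held FABP4, LAPTM5, and GPNMB, a glycoprotein of pigment cells and macrophages, at 595 TPM against 54.1 and 57.2 TPM in somatic differentiated libraries 2 and 3. MLANA, a pigment cell protein, was at 1366 TPM there and at 186 TPM in undifferentiated library 1, against 26.2 to 102 TPM in the other 4 libraries. Other pigment cell genes of the set were DCT, OCA2, GPR143 and TYRP1, at 950, 155, 31.8 and 19.0 TPM there. DCT was also at 146 TPM in undifferentiated library 1. EDNRB2 and SOX10 were in the set too, at 210 and 53.0 TPM. In undifferentiated libraries 1 to 3 EDNRB2 was at 41.2, 4.29 and 4.12 TPM, and GPNMB at 55.8, 12.1 and 12.2 TPM. IFI27L2 and FABP4 were instead highest in library 3 of that group. The set was not limited to genes of pigment cells and macrophages. It also held ACTA2, a smooth muscle actin gene, at 150 TPM against 8.55 and 18.2 TPM in somatic differentiated libraries 2 and 3. MEOX2, HOXD8 and VEGFD were in the set as well. The embryonic globin HBE was also highest in somatic differentiated library 1, at 17.99 TPM against 1.44 and 2.97 TPM. TLR7, a sensor of single-stranded RNA in immune cells, was at 4.004 TPM there and at 0.235 and 0.443 TPM in somatic differentiated libraries 2 and 3. It was below 10 TPM and so outside the set. The leukocyte markers CSF1R and PTPRC were not highest there, at 1.10 and 1.73 TPM against 2.01 and 1.96 TPM in somatic differentiated library 2.

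Genes of chromosome 16, which carries the MHC, were lowest in library 2 of both groups more often than other genes, a comparison also made after the values had been seen and not tested. Of 29 chromosome 16 genes averaging 10 TPM or more, 12 were lowest in library 2 of both groups (41.4%), against 14.1% of all 9095 genes at that level. TAP1 and KIFC1, a kinesin gene, were among them. KIFC1 was at 141, 79.6 and 141 TPM in undifferentiated and at 107, 57.1 and 117 TPM in somatic differentiated libraries 1 to 3. Of all chromosome 16 genes tested, 19 of 59 were lowest in library 2 of both groups, against 15.6% of all genes. The size of the difference was not alike in the 2 groups. In undifferentiated cells the median ratio of library 2 to the mean of libraries 1 and 3 was 0.805 for chromosome 16 and for all tested genes. In somatic differentiated cells it was 0.911 and 1.04. At 10 TPM or more, these ratios were 0.797 and 0.845 in undifferentiated, and 0.886 and 1.05 in somatic differentiated cells.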
